A study of Mus musculus with 24 samples.

Results

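Ribosome biogenesis factors are the enzymes, helicases and scaffold proteins that make ribosomal RNA, modify and cut it, and join it to ribosomal proteins, without staying in the finished ribosome. A list of 44 such genes was followed in mouse splenic B cells on 24 Affymetrix expression arrays. The list gives known factors by name and sets no threshold on a measured value. It was chosen with earlier results of these data known. Each gene is represented by its brightest probe set (a group of probes against 1 transcript) among those with 1 gene symbol. Of the 44 factors 43 were tested, among 14318 genes in all. Mrto4, a factor of large subunit assembly, has no value here, since its only probe set carries several gene symbols.

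The study compared B cells lacking NFATc1, a transcription factor that calcineurin activates when the B cell receptor raises calcium, with control B cells. In the mice with NFATc1-/- B cells (KO here), exon 3 of Nfatc1, which encodes the region that binds calcineurin, lies between loxP sites (Nfatc1flx) and is removed by Cre. The labels name 3 Cre lines that act in B cells, Cd79a (mb-1)-cre, Cd23-cre and one labelled Aidcd-cre, and do not say which was used for these arrays. The share of cells that had lost the exon is not given. The controls are labelled WT, and the labels do not say whether they carried a loxP or Cre allele. The dose of anti-IgM is not given. All mice were C57BL/6 and labelled 6 to 8 weeks old. Spleen cells received anti-IgM, which crosslinks the receptor, for 0 (unstimulated), 3, 8 or 16 h, and B cells were enriched with beads. Each of the 8 groups has 3 arrays, described as biological replicates. The labels do not say whether arrays with the same replicate number at different times came from the same mice.

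Ribosomes are assembled mainly in the nucleolus. RNA polymerase I transcribes one long precursor of the ribosomal RNAs, small nucleolar RNA-protein particles (snoRNPs) direct its chemical modification, and separate sets of factors cut, fold and export the precursors of the small and the large subunit. Resting lymphocytes make few ribosomes, and after antigen receptor stimulation they enlarge, form prominent nucleoli and raise ribosome production before they divide. MYC, a transcription factor induced by receptor signals, is known to bind the E-box CACGTG at many genes of this pathway.

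All levels are log2 of the array signal as deposited, so a difference of 1 is a doubling, and each array as deposited has the same trimmed mean signal. A level therefore says how much of a transcript there was relative to the rest of the array, and RNA per cell was not measured. Fewer cells of a type and less RNA per cell cannot be told apart in these bulk samples. Array medians ran from 6.22 to 6.98 and were highest in the KO arrays of replicate 2 at 8 h (6.83) and 16 h (6.98). The 3' minus 5' log2 signal, a measure of RNA integrity, was 0.43 to 0.55 at 0 h and 0.55 to 1.08 after stimulation for Actb, and -0.68 to -0.21 and -0.57 to -0.24 for Gapdh. The 4 WT arrays of replicate 2 stood apart by male-type expression of sex-linked genes. Of 8 B cell markers 7 were on the array, and each lay above its array's filter level, the 40th percentile, on all 24 arrays. Their summed signal was 113258 to 125693 in WT cells at 0 h and 41204 to 48266 at 3 h, and 105581 to 133430 and 41084 to 46739 in KO cells. Of the 7, 2 were called higher in KO than WT cells at 8 h, 2 at 16 h and 2 in the average of the 4 times (limma, adjusted p under 0.05). In each of these comparisons 0 were lower, and 0.0978%, 0.615% and 1.21% of all genes were called either way. In WT cells the sum over 7 macrophage markers was 4600 to 11470 at 0 h and 1784 to 6364 at 3 h, and that over the 4 NK cell markers on the array 374 to 665 and 95 to 306. In KO cells the macrophage sum was 4185 to 8664 and 1993 to 3276, and the NK cell sum 393 to 1037 and 190 to 406. At 16 h the macrophage sum was 2130 to 4594 in WT and 3279 to 9695 in KO cells. Of 10 T cell markers 9 were on the array, of which 1 lay above the filter level on all 24 arrays and Cd4 and Cd8b1 on none. The T cell sum was 432 to 618 in WT cells at 0 h and 492 to 554 at 3 h. In KO cells it was 398 to 860 and 619 to 635. The 5 erythroid markers on the array summed in WT cells to 796 to 908 at 0 h and 176 to 389 at 3 h, without overlap. In KO cells the erythroid sum was 897 to 3434 and 250 to 1147, with overlap. The 7 neutrophil markers on the array summed to 2820 to 4160 in WT and 786 to 5164 in KO cells at 0 h. The sum over 5 plasma cell markers was higher on every KO than on every WT array at 0, 3 and 8 h. It was 11113 to 14537 in KO against 8357 to 9878 in WT cells at 0 h, and 8085 to 9116 against 5667 to 8143 at 16 h. The part of these shifts in the results was not tested.

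The first comparison asks what anti-IgM did to these factors in control cells. By 3 h all 43 were higher than at 0 h, against 17% of all genes tested (limma, adjusted p under 0.05 over all genes). Their median log2 difference was 1.85, while the median over all genes was -0.14. The range ran from 0.55 for Imp3 to 3.09 for Rrp1b. Of the 43 factors 33 lay among the 5% of genes with the highest difference and 40 among the highest 10%. The increase lasted. At 8 h 42 factors were called higher (17.7% of all genes), with a median of 1.62 against -0.04 over all genes, and at 16 h 43 were (20.9% of all genes), with a median of 1.60 against 0.05. The factor not called at 8 h was Imp3, whose difference was 0.41 (SE 0.192, 95% interval 0.01 to 0.80, adjusted p = 0.114).

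The arrays show the same separation one by one. At 0 h every one of the 43 factors was above the filter level on all 6 unstimulated arrays, so the rise started from a measured level. In WT cells all 3 arrays at 3 h lay above all 3 at 0 h for 42 of 43 factors (20.5% of all genes), and the exception was Imp3. The same held for 43 at 8 h (22% of all genes) and 43 at 16 h (25.6% of all genes). The mean over the 43 factors was 10.40, 10.39 and 10.40 on the 3 WT arrays at 0 h and 12.28, 12.18 and 12.19 at 3 h. It was 11.89, 12.11 and 11.92 at 8 h and 12.15, 12.05 and 12.11 at 16 h. The unstimulated arrays lay almost on one value, and each stimulated array lay well above them. Scaling every array to the same median moved the median over all genes at 3 h from -0.14 to 0.10 and that of the 43 factors from 1.85 to 2.08, with 43 still called higher.

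**Figure D1:**
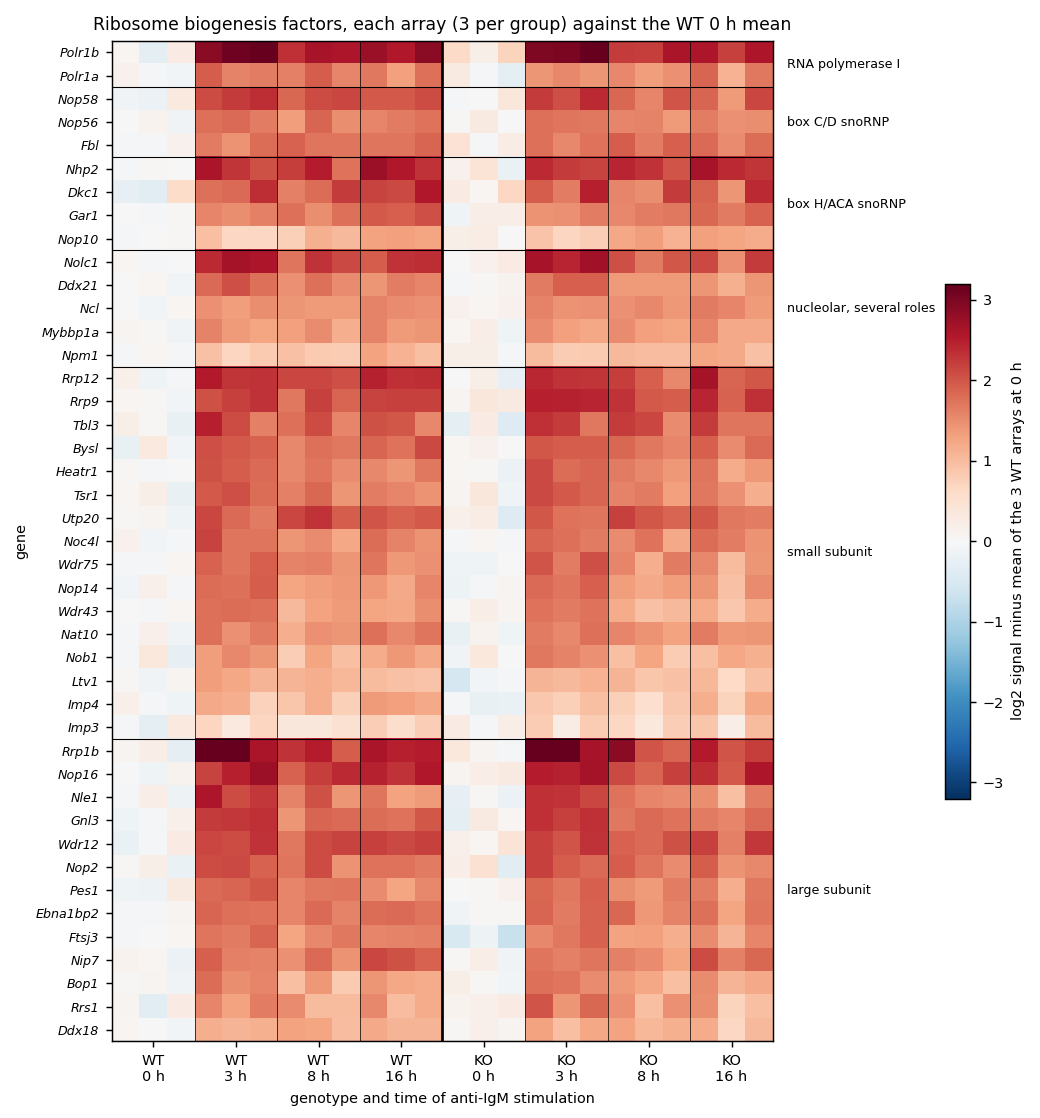
Log2 signal of each factor on each of the 24 arrays, minus the mean of the 3 WT arrays at 0 h. Rows are genes grouped by role and ordered by the WT difference at 3 h, columns are arrays grouped by genotype and time, and red marks higher and blue lower signal. The stimulated columns of both genotypes are red throughout, from pale for Imp3 (0.55 at 3 h in WT cells) to dark for Rrp1b (3.09).

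**Figure D2:**
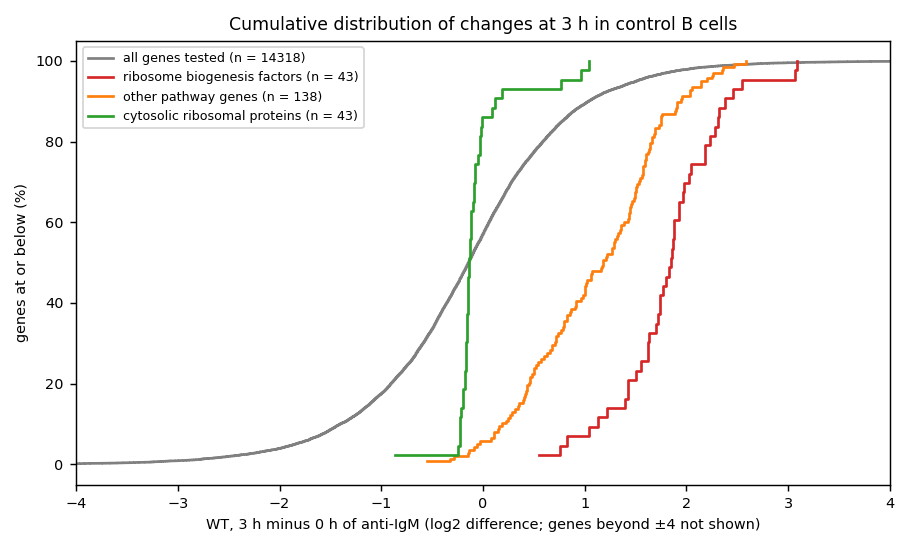
Cumulative share of genes (vertical axis, %) at or below each log2 difference between 3 h and 0 h in WT cells (horizontal axis), for all 14318 genes tested, the 43 factors, 138 other genes of the pathway and 43 cytosolic ribosomal proteins. The curve of the factors lies to the right, with a median of 1.85, that of the other pathway genes between (median 1.18), and that of the ribosomal proteins near the middle of all genes (median -0.14).

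Since these factors moved together, their promoters were read for the letters of known binding motifs. RefSeq promoter windows of the GRCm38.p6 assembly, from 250 bases before to 50 bases after the annotated start, matched 38 of the 44 factors, with 41 windows in all. Fbl, Npm1, Tbl3, Rrp12, Bop1 and Rrs1 were not matched. The E-box CACGTG stood in 9 of the 41 windows (22%), each of a different gene and with 1 match per window. It stood in 9.23% of the 14602 windows of the other genes tested and in 7.15% of all 32851 windows. The 9 stretches are shown because they are the places where the letters that MYC is known to bind occur among these factors. Each is in the sense of its gene, written 5′ to 3′, with the E-box in capitals:
Imp4: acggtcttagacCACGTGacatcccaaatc
Nop2: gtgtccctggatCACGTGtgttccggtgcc
Pes1: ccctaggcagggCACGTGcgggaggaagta
Wdr43: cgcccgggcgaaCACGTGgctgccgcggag
Nle1: tcggttctcctcCACGTGgggacgcaggat
Tsr1: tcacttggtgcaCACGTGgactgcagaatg
Ltv1: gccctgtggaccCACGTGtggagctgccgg
Utp20: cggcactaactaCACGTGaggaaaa
Mybbp1a: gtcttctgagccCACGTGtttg

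Of these matches 7 begin after the start and 2 before it, at base -121 for Imp4 and base -60 for Nop2. The stretches lie, in GRCm38.p6, for Imp4 at chr1:34439696-34439725 on the plus strand, Nop2 at chr6:125131811-125131840 on the plus strand, Pes1 at chr11:3963965-3963994 on the plus strand; Wdr43 at chr17:71616220-71616249 on the plus strand, Nle1 at chr11:82908355-82908384 on the minus strand, Tsr1 at chr11:74898092-74898121 on the plus strand; and for Ltv1 at chr10:13193092-13193121 on the minus strand, Utp20 at chr10:88826765-88826789 on the minus strand, Mybbp1a at chr11:72441355-72441376 on the plus strand. CACGCG stood in 9 of the 41 windows (22%, against 15.4% for the other genes tested), the ETS motif CCGGAAG in 9 (22% against 15.2%) and the NFAT core GGAAA in 26 (63.4% against 58.8%). The NRF1 motif and another palindrome of 10 letters stood in none, against 1.81% and 0.877%. Both strands were searched, and CACGTG reads the same on both. A match describes letters in a window and shows no binding. The motifs, like the list, were chosen with earlier results of these data known, and the differences between the shares were not tested.

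The 250 bases before the start are printed for a factor with an E-box there and for one without, because both rose at 3 h, Nop2 by 2.03 and Polr1b by 3.07. The Nop2 stretch is chr6:125131633-125131882 on the plus strand with 67.6% G and C, the E-box in capitals. The Polr1b stretch is chr2:129100746-129100995 on the plus strand with 49.6% G and C (GRCm38.p6).
Nop2: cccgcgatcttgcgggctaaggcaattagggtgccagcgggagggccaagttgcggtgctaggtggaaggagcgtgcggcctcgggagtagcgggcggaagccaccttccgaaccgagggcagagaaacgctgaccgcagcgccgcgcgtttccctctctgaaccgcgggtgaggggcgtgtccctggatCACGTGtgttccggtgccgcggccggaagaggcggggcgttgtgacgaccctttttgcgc
Polr1b: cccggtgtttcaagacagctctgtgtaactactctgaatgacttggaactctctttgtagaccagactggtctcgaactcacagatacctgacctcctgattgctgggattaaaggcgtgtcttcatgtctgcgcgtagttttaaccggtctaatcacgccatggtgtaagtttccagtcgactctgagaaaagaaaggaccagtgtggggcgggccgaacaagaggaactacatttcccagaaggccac

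The 9 factors with an E-box spanned much of the range of responses. Their differences at 3 h in WT cells ran from 1.04 for Imp4 and 1.22 for Ltv1 to 2.03 for Nop2 and 2.31 for Nle1. Both factors with the highest differences, Rrp1b and Polr1b, had none in their windows.

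RNA polymerase I makes the precursor of the ribosomal RNAs, and both of its large subunits on the list rose. Polr1b, the subunit that completes the active site, was 8.57, 8.19 and 8.76 on the WT arrays at 0 h and 11.39, 11.63 and 11.69 at 3 h. At 8 h it was 10.84, 11.15 and 11.09, and at 16 h 11.26, 11.07 and 11.39. Every stimulated array lay above the unstimulated ones, and the difference at 3 h was 3.07 (SE 0.166, 8.37-fold, adjusted p = 3.54e-12). Polr1a, the largest subunit, was 8.99, 8.79 and 8.76 at 0 h, 10.78, 10.44 and 10.49 at 3 h and 10.53, 10.16 and 10.62 at 16 h. Its groups did not overlap with 0 h either, and its difference at 3 h was 1.72 (SE 0.177, 3.3-fold, adjusted p = 3.2e-08).

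Box C/D snoRNPs methylate the ribose of ribosomal RNA, and all 3 of their core proteins on the list rose, by 1.62 to 2.23 at 3 h. Nop58, a scaffold of the particle, was 10.30, 10.21 and 10.71 at 0 h and 12.49, 12.65 and 12.77 at 3 h, a difference of 2.23 (SE 0.17, 4.7-fold, adjusted p = 3.11e-10). Nop56, its partner, was 11.59, 11.69 and 11.47 and 13.35, 13.39 and 13.23, a difference of 1.74 (SE 0.116, 3.34-fold, adjusted p = 4.13e-11). Fbl, which encodes the methyltransferase fibrillarin, was 12.04, 12.04 and 12.25 at 0 h, 13.76, 13.55 and 13.90 at 3 h and 13.99, 13.82 and 13.81 at 8 h. Its difference was 1.62 (SE 0.131, 3.08-fold, adjusted p = 7.27e-10) at 3 h and 1.76 at 8 h, and no stimulated array overlapped with 0 h.

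Box H/ACA snoRNPs convert uridine to pseudouridine and also form part of telomerase. Their 4 core proteins, Dkc1, Gar1, Nhp2 and Nop10, are all on the list and all rose at each time, with the highest WT means at 16 h for all 4. Nhp2 was 11.49, 11.58 and 11.55 at 0 h, 14.15, 13.83 and 13.59 at 3 h and 14.28, 14.10 and 13.85 at 16 h, a difference of 2.32 (SE 0.183, 4.99-fold, adjusted p = 4.93e-10) at 3 h and 2.54 at 16 h. Dkc1, the pseudouridine synthase dyskerin, was 10.32, 10.25 and 11.16 at 0 h, 12.34, 12.39 and 12.94 at 3 h and 12.73, 12.68 and 13.15 at 16 h. The array of replicate 3 was the highest in each of these groups, and the difference at 3 h was 1.98 (SE 0.277, 3.94-fold, adjusted p = 3.07e-06). Gar1 was 10.91, 10.82 and 10.93 at 0 h, 12.44, 12.38 and 12.49 at 3 h and 12.85, 12.81 and 12.94 at 16 h, with differences of 1.55 and 1.98. Nop10, the smallest protein of the particle, was 12.68, 12.75 and 12.78 at 0 h, 13.70, 13.39 and 13.41 at 3 h and 14.03, 14.06 and 13.99 at 16 h. The difference of Nop10 at 3 h, 0.76 (SE 0.107, 1.69-fold, adjusted p = 3.6e-06), was the second lowest of the 43, and it was 1.29 at 16 h.

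Of the nucleolar proteins with several roles, all 5 rose, and they spanned most of the range of the list. Nolc1, a phosphoprotein that chaperones snoRNPs, was 10.23, 10.09 and 10.15 at 0 h and 12.55, 12.82 and 12.74 at 3 h, a difference of 2.55 (SE 0.171, 5.85-fold, adjusted p = 4.7e-11). Npm1, the histone and ribosome chaperone nucleophosmin, was 14.09, 14.19 and 14.09 at 0 h, 15.07, 14.82 and 14.97 at 3 h and 15.42, 15.24 and 15.09 at 16 h. The groups of Npm1 did not overlap, yet its difference at 3 h was small for the list, 0.83 (SE 0.112, 1.78-fold, adjusted p = 1.8e-06). Between them lay the helicase Ddx21 (1.88), nucleolin, encoded by Ncl (1.43), and the transcriptional coregulator Mybbp1a (1.40).

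Of 16 factors of the small subunit all rose at 3 h, with a median of 1.86. The highest was Rrp12, which helps to export the precursors from the nucleus, and the lowest was Imp3, which bridges the U3 snoRNA and the precursor RNA. Rrp12 was 7.97, 7.67 and 7.77 at 0 h, 10.33, 10.10 and 10.11 at 3 h and 10.27, 10.13 and 10.17 at 16 h, a difference of 2.38 (SE 0.181, 5.19-fold, adjusted p = 2.97e-10) at 3 h. Imp3 was 11.13, 10.90 and 11.50 at 0 h, 11.86, 11.48 and 11.87 at 3 h, 11.54, 11.55 and 11.67 at 8 h and 11.96, 11.73 and 11.96 at 16 h. Its highest unstimulated array lay above its lowest array at 3 h. The difference at 3 h was 0.55 (SE 0.192, 1.47-fold, adjusted p = 0.0243). That call ended without WT replicate 1 or 2 at 0 h (adjusted p = 0.0662 and 0.14), without WT replicate 1 or 3 at 3 h (adjusted p = 0.0879 and 0.0873) and without all 4 WT arrays of replicate 2 (adjusted p = 0.0861). Over all its alternatives the difference ranged from 0.42 to 0.79 with an adjusted p of at most 0.14. Imp4, its partner in the same complex, rose by 1.04, and Rrp9, a protein of the U3 particle, by 2.18. Factors of the processome that forms on the growing precursor rose by 1.77 (Wdr43), 1.85 (Wdr75), 1.93 (Heatr1), 1.87 (Utp20) and 2.05 (Tbl3). Nop14 and Noc4l, which bind each other on the precursor, rose by 1.83 and 1.86. The RNA acetyltransferase Nat10 rose by 1.63. The later factors were higher too, Bysl by 1.97, Tsr1 by 1.93, the endonuclease Nob1 by 1.43 and Ltv1 by 1.22.

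Of 13 tested factors of the large subunit all rose at 3 h, with a median of 1.88, and 11 of the 13 had their highest WT mean at 3 h. Rrp1b, a nucleolar protein, was 9.10, 9.23 and 8.72 at 0 h, 12.38, 12.32 and 11.64 at 3 h, 11.32, 11.54 and 10.95 at 8 h and 11.63, 11.51 and 11.53 at 16 h. Its difference at 3 h was 3.09 (SE 0.256, 8.53-fold, adjusted p = 1.08e-09), above that of any other factor on the list, and its groups did not overlap with 0 h. The DEAD-box helicase Ddx18 was 10.86, 10.80 and 10.71 at 0 h and 11.96, 11.88 and 11.92 at 3 h, a difference of 1.13 (SE 0.121, 2.18-fold, adjusted p = 6.31e-08). It was the lowest of the group, and its 3 h arrays nonetheless lay within a narrow band above 0 h. The 3 proteins of the PeBoW complex, which is needed to mature the large subunit's RNA, rose by 1.88 (Pes1), 1.62 (Bop1) and 2.18 (Wdr12). Both RNA methyltransferases were higher, Nop2 by 2.03 and Ftsj3 by 1.74. Nop16 rose by 2.46, Nle1, which prepares the particle for remodelling, by 2.31, and the GTPase Gnl3 (nucleostemin) by 2.28. The remaining assembly factors were Ebna1bp2 (1.80), Nip7 (1.70) and Rrs1 (1.5).

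**Figure D3:**
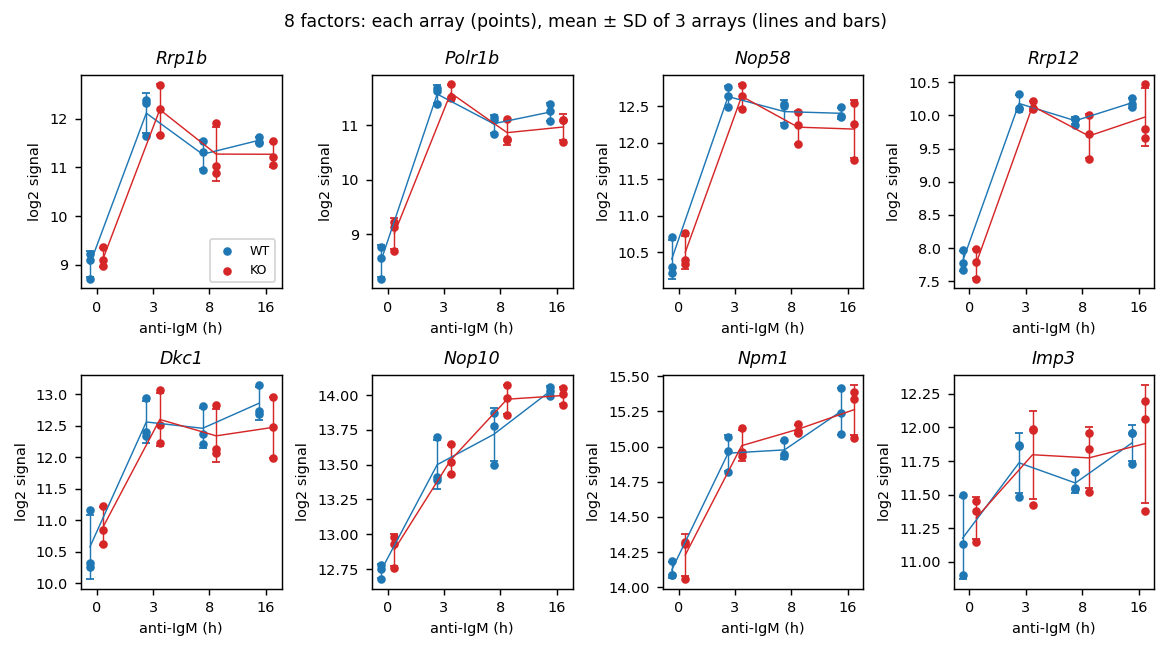
Log2 signal (vertical axes, a separate scale for each gene) of 8 factors against hours of anti-IgM (evenly spaced), with 1 point per array and the mean ± SD of 3 arrays for WT (blue) and KO (red). Rrp1b and Polr1b rise steeply by 3 h (3.09 and 3.07 in WT cells) and are lower at 8 h, Nop10 and Npm1 have their highest means at 16 h in both genotypes, and the points of Imp3 overlap between 0 and 3 h.

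After 3 h the factors took different courses. Of the 43, 28 had their highest WT mean at 3 h, 2 at 8 h and 13 at 16 h, which compares with 53%, 10.2% and 36.9% of the other genes called higher at 3 h. All 4 H/ACA proteins and 3 of the 5 nucleolar proteins with several roles (Ncl, Npm1 and Mybbp1a) peaked in the mean at 16 h, while 11 of 16 small subunit and 11 of 13 large subunit factors did so at 3 h. In KO cells 30 factors had their highest mean at 3 h, 4 at 8 h and 9 at 16 h. Of the other genes called higher at 3 h there, 58.1%, 13.8% and 28.1% did. The KO mean was highest at 16 h for 3 of 4 H/ACA proteins and 2 of these 5 nucleolar proteins. It was highest at 3 h for 13 of 16 small subunit and 11 of 13 large subunit factors. The difference between 16 h and 3 h was not tested. Between 3 and 8 h, 9 factors fell in WT cells (5.57% of all genes fell) and 0 rose (10.3% of all genes rose). In limma 15 of 43 factors and 3889 of 14318 genes had an unadjusted p under 0.05.

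Those that fell in WT cells were Rrp1b (-0.84, adjusted p = 0.0269), Nle1 (-0.64), Gnl3 (-0.58), Polr1b (-0.55), Bop1 (-0.55), Wdr43 (-0.53, adjusted p = 0.00142), Nolc1 (-0.50), Nop14 (-0.50) and Noc4l (-0.48). In KO cells 15 factors fell (6.01% of all genes) and 1 rose (13.2% of all genes). The 8 factors other than Noc4l fell there too, with -0.91 for Rrp1b, -0.72 for Polr1b and -0.68 for Nolc1. The others that fell were Ddx21 (-0.47), Wdr75 (-0.45), Heatr1 (-0.40), Nob1 (-0.56), Tsr1 (-0.45), Nop16 (-0.49) and Ftsj3 (-0.45). Nop10 rose (0.44, SE 0.107, adjusted p = 0.00542), and its WT difference was 0.22 (adjusted p = 0.191). Whether the genotypes differed in the change from 3 to 8 h was not tested. These counts rest on few arrays. The WT count was 2, 3 or 5 without WT replicate 1 at 8 h, WT replicate 3 at 8 h or WT replicate 1 at 3 h, and the KO count was 8 or 9 without KO replicate 1 at 3 h or KO replicate 3 at 8 h. Scaling to the same median left 0 calls in WT and 4 in KO cells, and asking for at least 1.5-fold left 2 and 5.

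Between 8 and 16 h, 1 factor was called in WT cells, Nip7, which binds the precursor of the large subunit. It was 12.35, 12.70 and 12.34 at 8 h and 13.04, 12.94 and 12.79 at 16 h, so the groups did not overlap, and it rose by 0.46 (SE 0.138, adjusted p = 0.0401). Of all genes 3.83% rose and 3.92% fell. That call ended without WT replicate 1 or 3 at 8 h (adjusted p = 0.147 and 0.149), without WT replicate 1 or 2 at 16 h (adjusted p = 0.15 and 0.121) and with median scaling (adjusted p = 0.445). In KO cells 0 factors were called, against 2.4% of all genes that rose and 2.26% that fell (limma), with 2 of 43 factors and 2367 of all genes at an unadjusted p under 0.05.

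**Figure D4:**
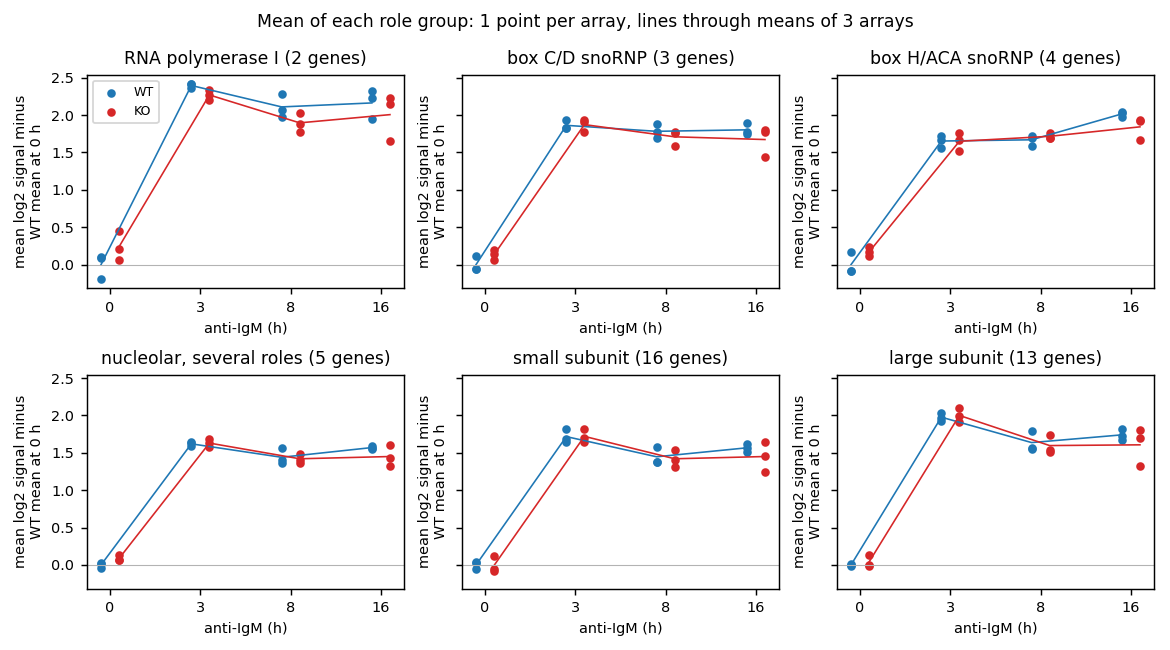
Mean log2 signal of the factors in each role group, minus the WT mean at 0 h (vertical axes), against hours of anti-IgM (evenly spaced), with 1 point per array and lines through the means of 3 arrays for WT (blue) and KO (red). In each group the rise is in place by 3 h. The H/ACA mean is highest at 16 h and the means of the large and small subunit factors at 3 h in WT cells, and the KO array of replicate 2 is the lowest point at 16 h.

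The next comparison looks at the same response in cells without NFATc1. At 3 h 42 of 43 factors were called higher in KO cells (16.6% of all genes), with a median of 1.80. The counts were 42 at 8 h (17.3% of all genes), with a median of 1.52, and 43 at 16 h (19.4% of all genes), with a median of 1.52. Imp3 was the factor not called at 3 h (0.47, 95% interval 0.08 to 0.87, adjusted p = 0.0554) and at 8 h (0.45, 95% interval 0.05 to 0.84, adjusted p = 0.0809). At 16 h its difference was 0.55 (adjusted p = 0.0267), and 7 of 17 alternatives ended that call, with an adjusted p of up to 0.189. The 3 KO arrays lay above those at 0 h for 42 of 43 factors at 3 h (20.2% of all genes), 43 at 8 h (21.3%) and 42 at 16 h (23.1%). Across both genotypes, 42 of 43 factors were called higher in all 6 comparisons with 0 h, against 9.47% of all genes.

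Single factors are given beside their WT differences. Rrp1b was 9.36, 9.10 and 8.98 in KO cells at 0 h and 12.70, 12.20 and 11.66 at 3 h, a difference of 3.04 (SE 0.256, 8.21-fold, adjusted p = 1.46e-09). Nop58 was 10.34, 10.40 and 10.76 and 12.65, 12.47 and 12.80, a difference of 2.14 beside 2.23 in WT cells. Both rose with no overlap between the groups. Rrp12 was 7.79, 7.98 and 7.54 at 0 h and 10.22, 10.11 and 10.09 at 3 h, a difference of 2.37 beside 2.38. Npm1 was 14.31, 14.32 and 14.06 and 15.13, 14.93 and 14.96, a difference of 0.78 beside 0.83. Factors with a high difference in one genotype had a high one in the other. Across the 43 factors the WT and KO differences correlated with r = 0.963, 0.909 and 0.906 at 3, 8 and 16 h, and across all 14318 genes with 0.763, 0.71 and 0.761. The points are genes on the same 2 sets of arrays, so the values describe these arrays and carry no test.

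KO and WT cells were then compared directly, both at single times and as an average of the 4 times. No factor was called in either direction in any of these comparisons (limma). The shares of all genes called either way were 0.0349%, 0.0559%, 0.0978% and 0.615% at 0, 3, 8 and 16 h and 1.21% in the average. At an unadjusted p under 0.05 there were 2, 0, 1 and 1 of 43 factors at 0, 3, 8 and 16 h and 5 in the average, beside 500, 531, 777, 1013 and 1382 of all genes. The median difference of the factors was 0.08, 0.01, -0.05 and -0.15 at 0, 3, 8 and 16 h and -0.02 in the average. The intervals bound what these arrays could have missed only if the arrays are independent, as the fit takes them. Within a genotype, same-numbered arrays deviated together in part, with correlations of 0.02 to 0.374. With such correlation across the 4 times the averaged intervals may be too narrow, and intervals with a block are not given here. In the average all 43 of the 95% intervals lay within 0.5 of 0, from -0.38 for Ftsj3 to 0.33 for Rrp9. At single times all 43 lay within 1 of 0 and 31, 37, 32 and 31 within 0.5 at 0, 3, 8 and 16 h.

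Ftsj3, an RNA methyltransferase of large subunit assembly, had the lowest averaged difference, -0.24 (95% interval -0.38 to -0.09, adjusted p = 0.119). At 0 h it was 9.98, 10 and 10.09 in WT and 9.54, 9.86 and 9.30 in KO cells. All 3 KO arrays lay below the WT arrays there, a difference of -0.46 (adjusted p = 0.9), and at 3 h the difference was -0.04. Without KO replicate 2 at 0 h the averaged difference was -0.27 and passed (adjusted p = 0.047). Over its 36 alternatives the adjusted p ranged from 0.047 to 0.969 and the difference from -0.27 to -0.20. Rrp9 had the highest averaged difference, 0.18 (95% interval 0.02 to 0.33, adjusted p = 0.414).

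At 16 h 38 of 43 factors had a KO value below the WT value (48.7% of all genes did), with a median difference of -0.15 against 0.01 over all genes. The mean over the 43 factors was 12.14, 11.75 and 12.02 on the KO arrays and 12.15, 12.05 and 12.11 on the WT arrays. The KO array of replicate 2 was the lowest, and it is also the array with the highest median of all 24 (6.98). Its Actb 3' minus 5' value (0.91) and that of KO replicate 2 at 8 h (1.08) were the highest of the 24, and it had the lowest correlation within a group, 0.9181, shared with KO replicate 3 at 16 h. The part of these values in the difference was not tested. Without this array and KO replicate 2 at 8 h, the median was -0.03 against -0.02 over all genes, and 28 of 43 factors lay below 0. With quantile normalization of all arrays the median at 16 h was -0.12, and 38 of 43 lay below 0. With median scaling it was -0.18 with 40 below 0 (-0.02 over all genes). Without the 4 WT arrays of replicate 2 it was -0.17 with 39 below 0 (0.01 over all genes). The factor with the lowest difference was Dkc1, which was 12.47, 11.98 and 12.96 in KO cells at 16 h against 12.73, 12.68 and 13.15 in WT cells. The difference was -0.38 with a 95% interval from -0.96 to 0.19, and the arrays overlapped.

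Whether the size of the response differed between the genotypes was tested as the KO change minus the WT change. In this test 0 of 43 factors were called at 3, 8 and 16 h and 0 in the F-test over the 3 changes (limma), against 0%, 0%, 0.021% and 0.014% of all genes. At an unadjusted p under 0.05 there were 2, 1 and 2 factors, beside 330, 446 and 624 of all genes, and 1 factor in the F-test, beside 401. The lowest value at each time belonged to Polr1b, with -0.78 at 16 h (95% interval -1.27 to -0.30, adjusted p = 0.554). At 0 h Polr1b was 8.57, 8.19 and 8.76 in WT cells and 9.13, 8.69 and 9.23 in KO cells, a difference of 0.51 with overlapping arrays. At 3 h it was 11.39, 11.63 and 11.69 in WT and 11.50, 11.52 and 11.75 in KO cells, a difference of 0.02, and at 16 h the KO arrays were 11.10, 10.70 and 11.10. For Polr1b the genotypes stood farthest apart on the unstimulated arrays, and none of these differences passed the test. Over all 43 factors the median of this difference at 16 h was -0.18, with 37 below 0 (0.00 over all genes). It was -0.11 with 30 below 0 without the 2 arrays of highest median signal (-0.03 over all genes), and -0.28 with 40 below 0 with median scaling (-0.09 over all genes). Without the 4 WT arrays of replicate 2 it was -0.22 with 39 below 0 (-0.01 over all genes).

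**Figure D5:**
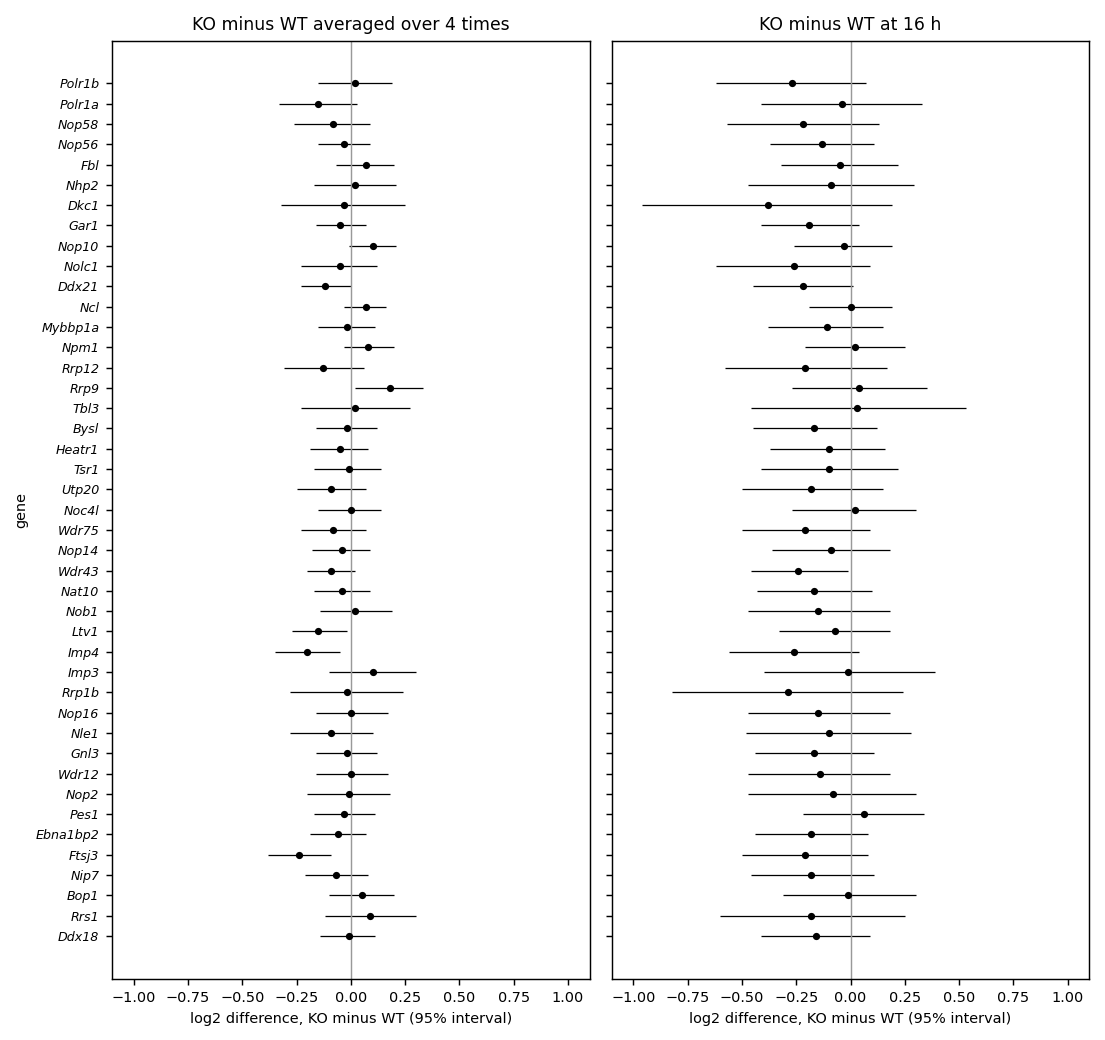
KO minus WT log2 difference of each factor (points) with its 95% interval (lines), averaged over the 4 times (left) and at 16 h (right). The intervals take all arrays as independent. Horizontal axes are log2 differences and the rows are genes in the order of the map of all arrays. On the left every interval lies within 0.5 of 0, with Ftsj3 the lowest (-0.24), and on the right 38 of 43 points lie below 0, with wide intervals such as that of Dkc1 (-0.96 to 0.19).

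Other probe sets of the same genes gave a check on the ones used. Of these, 41 from 28 genes passed the filter, and 38 were higher at 3 h in WT cells (tested over all 26671 probe sets, of which 16.3% were higher), with 0 lower. The other 3 were dim probe sets of Imp4, Nat10 and Ebna1bp2, each of which had another probe set that was called higher. The differences of the 41 at 3 h in WT cells ran from -1.41, which was not called, to 2.72. At 16 h 34 of 41 were higher in WT cells (18.5% of all probe sets) and 34 in KO cells (17% of all probe sets). A further 5 probe sets, of Polr1a, Tbl3 and Wdr12, were above the filter level on no array. KO minus WT differences of the 41 that passed ran from -2.78 to 0.63 at 0 h and from -1.84 to 0.8 at 3 h. They ran from -1.93 to 0.11 at 8 h, from -2.95 to 0.33 at 16 h and from -2 to 0.2 in the average. In the comparisons of KO with WT 1 of the 41 was called, against 0.427% of all probe sets at 16 h and 0.885% in the average. It belongs to Ddx18, with a KO minus WT difference of -1.02 at 16 h (SE 0.201, adjusted p = 0.0175) and -0.48 in the average (adjusted p = 0.0167). The Ddx18 probe set used above, which is brighter, differed by -0.16 at 16 h and -0.01 in the average and was not called, and the dimmer one was singled out after its values were seen. Of Ddx18, 3 probe sets passed the filter, and the remaining one was not called in the comparisons of KO with WT either. Which transcripts these probe sets read was not analysed here.

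Most genes of the same pathway outside the list rose as well. Of 144 such genes 138 were tested, and at 3 h in WT cells 115 were higher, 2 lower and 21 not called, with a median of 1.18. Of all 14318 genes 2439 were higher and 3047 lower there. At 16 h 121 of the 138 were higher and 2 lower (2992 and 2643 of all genes). In KO cells at 3 h 113 of the 138 were higher and 4 lower (2379 and 3104 of all genes). The 3 with the highest differences were the large subunit factor Ppan (2.59), the H/ACA assembly factor Naf1 (2.47) and Zfp593 (2.36). The called genes with the lowest were Taf1b, a part of the factor that recruits RNA polymerase I (-0.55), the kinase Riok3 (-0.29) and the exosome subunit Exosc8 (0.34). By group, 12 of 16 other genes of RNA polymerase I and its cofactors were higher at 3 h, 7 of 9 other snoRNP genes, 41 of 46 other small subunit factors, 44 of 52 other large subunit factors and 11 of 15 genes of the exosome and RNA trimming. Ubtf, which binds ribosomal DNA for polymerase I, differed by 0.29 (adjusted p = 0.108) and was not called at 3 h. Averaged over time 1 of the 138, the helicase Ddx54, was called lower in KO than WT cells (limma, -0.21, SE 0.0439, adjusted p = 0.0123). Of all genes 1.21% were called either way in this comparison.

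Most genes for proteins of the ribosome itself were not called. Of 79 cytosolic ribosomal protein genes 43 were tested, and at 3 h in WT cells 2 were higher, 0 were lower and 41 were not called, with a median of -0.14, the same as over all genes. The 2 were Rps25 (1.04) and Rpl12 (0.96). Of all 14318 genes 2439 were higher and 3047 lower at 3 h. At 16 h 5 of the ribosomal protein genes were higher and 1 lower, against 2992 and 2643 of all genes. Of 19 genes of mitochondrial ribosome assembly 8 were higher and 2 lower at 3 h, with a median of 0.09.

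Myc, whose protein is known to drive transcription of this pathway, rose in WT cells at 3 h by 1.76 (SE 0.297, adjusted p = 3.6e-05). Its difference was 0.75 at 8 h (adjusted p = 0.0559) and 0.59 at 16 h (adjusted p = 0.125), and it fell between 3 and 8 h (-1.01, adjusted p = 0.0224). In KO cells Myc rose at 3 h by 1.97 (SE 0.297, adjusted p = 8.68e-06), and its averaged KO minus WT difference was -0.17 (SE 0.149, adjusted p = 0.827). The brightest Nfatc1 probe set had an averaged KO minus WT difference of 0.56 (SE 0.0628, adjusted p = 1.12e-05). Where it lies relative to the deleted exon is not given, so it checks nothing about the deletion. Rcan1 is a known target of NFAT that inhibits calcineurin. Its averaged KO minus WT difference was -0.61 (SE 0.0916, adjusted p = 0.000519), so it was lower in KO cells. The Rcan1 mean was 8.31 in WT and 8.41 in KO cells without stimulation. It was 8.92 and 8.78 at 3 h, 9.46 and 8.75 at 8 h and 11.03 and 9.33 at 16 h.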

How the data were processed

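RNA of 24 samples was labelled and hybridised to 1-colour Affymetrix arrays, 1 per sample. Per the submitters' processing notes the authors computed signals with MAS5, with no version given, and the deposited table holds their log2, used unchanged. Of 45101 probe sets 64 are controls, and 34945 others have 1 gene symbol in the platform's annotation. A probe set was kept if it exceeded the 40th percentile of its array on at least 3 arrays, and the brightest per gene gave 14318 genes.

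The tests are those of limma 3.58.1 under R 4.3.3, fitted with a mean for each group on all 24 arrays (16 residual degrees of freedom, trended eBayes). A call needs an adjusted p under 0.05 (Benjamini-Hochberg, over all 14318 genes), and SE and 95% intervals are limma's. The fit was tested on simulated data, and the settings and outcome of that test are not given here. The number of arrays limits the precision. Each p-value sets a difference against the spread between arrays within groups, with the arrays taken as independent. The members, lists, motifs and tests were chosen with earlier results of these data known. Per-array values are given for all members of role groups under 5, and for the highest and lowest at 3 h in WT cells in the others; values of Ftsj3, Nip7, Ubtf, Rps25 and Rpl12 were added after they were seen. Motifs were searched with Python 3.11.15 in RefSeq promoter windows, and figures drawn with matplotlib 3.10.9. Alternatives were other normalizations, filters, blocks, fits and probe sets, leaving out single arrays, and asking for at least 1.5-fold. Leaving out the 2 arrays of highest median signal, or the 4 of male-type expression, was added after the data were seen.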

Additional observations from a re-analysis of the deposited data

How the results depend on the processing

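The calls against 0 h depended little on the processing. In all, 281 calls of a factor in a comparison were retested under the alternatives. Of 4777 retests 4640 kept the direction and the call, 137 kept the direction and lost the call, and 0 reversed. The lost calls belong to 26 of the 281. Against 0 h they concern Imp3 in WT cells at 3 h and in KO cells at 16 h, and the others lie between stimulated times. Counts of called factors were retested 312 times, and 27 of the counts moved by over 1.5 times. Between 8 and 16 h in WT cells, with 1 called, the count was 0 with quantile normalization, with median scaling, with no filter, with the compared groups alone, without trend, with a minimum of 1.5-fold and without the 4 male-type arrays. It was 2 with a filter at the 60th percentile and 0 to 1 with single arrays left out. Between 3 and 8 h the WT count of 9 was 0 with median scaling, 5 with the compared groups alone and 2 with a minimum of 1.5-fold, and 2 to 11 with single arrays left out. The KO count of 16 was 4 with median scaling and 5 with a minimum of 1.5-fold, and 8 to 15 with single arrays left out. The averaged KO minus WT count of 0 was 0 to 1 with single arrays left out. The cause of these changes was not tested.

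Within a genotype, same-numbered arrays deviated from their group means with correlations of 0.02 to 0.374, with a median of 0.0939 and 16 of 36 pairs over 0.1. Arrays of different number had a median of -0.0486 and 0 of 72 pairs over 0.1. Across genotypes same-numbered arrays had -0.0406 to 0.222, with 11 of 48 over 0.1, against 2 of 96 for different numbers. Same-numbered arrays thus deviated together in part, which is a hint from the data and not from the design. Not every pair exceeded 0.1, and the replicate number stayed out of the reported fit, which takes all arrays as independent. That cutoff does not show that they are. With the replicate number as a fixed block, 6 factors rose between 8 and 16 h in WT cells (Dkc1, Gar1, Nhp2, Nop10, Npm1 and Nip7; 7.19% of all genes rose) and 1 in KO cells (Nip7; 4.83% of all genes). With genotype and replicate number as a random block (correlation 0.208), 4 did in WT cells (6.55% of all genes) and 1 in KO cells (4.25% of all genes). Imp3, not called without a block, was called higher with the fixed block in WT cells at 8 h (adjusted p = 0.00468) and in KO cells at 3 h (0.00112) and 8 h (0.0022), and with the random block (0.0317, 0.0113 and 0.0188), so that 43 factors were called in each comparison with 0 h. With either block 0 factors were called in the comparisons of KO with WT. With 3 arrays per group, small differences between the genotypes at single times could not be resolved.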

Other observations

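Some factors followed the replicate number. Dkc1, Nop16, Nop58 and Pes1 were highest on the array of replicate 3 in each of the 8 groups, 4 of 43 factors, and 578 of all 14318 genes (4.04%) were highest on 1 replicate number throughout. For Dkc1 the WT arrays of replicates 1, 2 and 3 were 10.32, 10.25 and 11.16 at 0 h and 12.73, 12.68 and 13.15 at 16 h, and the KO arrays 10.85, 10.63 and 11.23 and 12.47, 11.98 and 12.96. The labels do not say what samples of the same number share. The observation was made after the values were seen, and the difference between the shares was not tested.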
